A study of Mus musculus with 2 samples.

Results

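Endothelin, angiotensin II, nitric oxide and the autonomic transmitters set the tone of cardiac vessels and the rate and force of the heartbeat. The genes examined were 10 of the 32589 in the deposited count matrices, taken by their symbols: Edn1, Ednra and Ednrb for endothelin, Ace and Agtr1a for angiotensin, Nos3 for nitric oxide, and Adra1a, Adra1b, Adrb1 and Chrm2 for the autonomic receptors. All 10 had UMIs in both libraries. Single-nucleus RNA-seq had been made from the hearts of male C57BL/6 mice that were 8 weeks old when the treatment began, with 1 library for each of the groups. Mice of the PD-1 inhibitor group were given the antibody InVivoPlus anti-mouse PD-1 into the peritoneum, at 5 mg/kg on days 1 and 14 of a cycle of 28 days, and mice of the control group were given PBS at the same times. The number of hearts in a library is not given in the sources used here.

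In vessels, endothelin-1 is made by ECs as a precursor and cut to its active form by the enzyme Ece1. It contracts mural cells and acts on cardiomyocytes through the receptor Ednra, whereas Ednrb on ECs releases nitric oxide and clears the peptide. Angiotensin II, made by the enzyme Ace, constricts vessels through Agtr1a, and nitric oxide made by the endothelial synthase Nos3 relaxes them. Noradrenaline raises the rate and force of the beat through Adrb1 and acts on growth and contraction through Adra1a and Adra1b. Acetylcholine from the vagus slows the heart through Chrm2, which opens a potassium channel formed by Kcnj3 and Kcnj5.

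The control library held 10197 barcodes with 13177525 UMIs and the PD-1 inhibitor library 7967 with 10875248, and 48 barcode sequences occurred in both. After filters and removal of doublets, 9522 and 7644 nuclei remained, with a median of 1012 and 1055 UMIs. They formed 21 clusters, of which 20 were like 1 of the populations of the study by fixed markers, and the population names (ECs, Fibroblasts, Cardiomyocytes, MPs, Mural cells and so on) stand for "EC-like", "fibroblast-like" and the like. All 10 EC, 10 fibroblast and 10 cardiomyocyte markers had UMIs in the nuclei named after them, in both libraries. The clusters were named from these same lists. All 10 cardiomyocyte markers also had UMIs in ECs, Fibroblasts and MPs, so presence alone does not set populations apart. Summed, the cardiomyocyte markers were at 64267 and 66306 CPM in Cardiomyocytes, against 3664 and 3732 CPM in ECs. As each condition is a single library, nothing is replicated and no test was made. A level is the sum of UMIs over nuclei per 1000000 UMIs (CPM), a log2 ratio is PD-1 inhibitor over control, and all brackets hold 95% intervals that cover counting error only. The clustering itself used Edn1, Ednrb, Ace, Nos3 and Chrm2 among its variable genes, so where these 5 genes lie over the clusters is a description.

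For the endothelin genes the promoters are shown first, because the ligand and the receptors of 1 signal were highest in different clusters. Each is the RefSeq sequence on GRCm38.p6 from 250 bases before the start site to 50 bases after it, and 7 of the 10 genes had an entry. Edn1 lies on the plus strand of chromosome 13, and its window is chr13:42301226-42301525. Ednra lies on the minus strand of chromosome 8 with the window chr8:77724403-77724702, and Ednrb on the minus strand of chromosome 14 with the window chr14:103843652-103843951. Capitals mark matches, on either strand, to any of the motifs searched. The letters for the GATA factors were AGATAA and those for the core of the HIF element were ACGTG. An E-box was CANNTG, where N is any base, and the AP-1 motif was TGA and TCA with 1 base between them.
Edn1: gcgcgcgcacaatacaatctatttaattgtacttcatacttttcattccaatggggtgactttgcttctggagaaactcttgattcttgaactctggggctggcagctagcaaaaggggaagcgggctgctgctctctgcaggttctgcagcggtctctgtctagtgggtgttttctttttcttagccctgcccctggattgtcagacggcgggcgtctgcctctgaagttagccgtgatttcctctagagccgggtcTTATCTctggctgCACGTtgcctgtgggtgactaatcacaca
Ednra: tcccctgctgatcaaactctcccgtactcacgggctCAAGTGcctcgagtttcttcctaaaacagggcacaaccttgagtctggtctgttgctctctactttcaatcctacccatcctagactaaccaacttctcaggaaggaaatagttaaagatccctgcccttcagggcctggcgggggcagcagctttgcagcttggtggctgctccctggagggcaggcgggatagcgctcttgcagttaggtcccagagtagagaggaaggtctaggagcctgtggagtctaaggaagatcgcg
Ednrb: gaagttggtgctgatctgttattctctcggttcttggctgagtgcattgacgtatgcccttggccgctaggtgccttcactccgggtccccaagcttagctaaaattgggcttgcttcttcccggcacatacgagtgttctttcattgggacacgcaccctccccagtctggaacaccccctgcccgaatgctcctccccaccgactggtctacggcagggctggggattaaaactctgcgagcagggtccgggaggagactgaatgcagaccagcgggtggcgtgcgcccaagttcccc
The Edn1 window held 1 GATA match that begins 8 bases after the start site and 1 HIF core match that begins 21 bases after it, the Ednra window held 1 E-box at position -214, and the Ednrb window held none of the 4. Positions count from the start site of the entry used. The Ednrb window lies wholly inside the annotated span of the gene, chr14:103814625-103844402, so its start site is not the outermost one. Of the 32851 promoter windows in the table, 11.2% held the GATA letters, 19.6% the HIF core, 7.81% the AP-1 letters and 72.3% an E-box. The motifs do not overlap each other in these windows, and a match is a run of letters and not a shown binding site.

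The genes fell into 4 leading populations, by the mean level of both libraries. Edn1, Ednrb and Nos3 led in ECs, Ednra and Agtr1a in Mural cells, Ace in Fibroblasts, and Adra1a, Adra1b, Adrb1 and Chrm2 in Cardiomyocytes, among the 8 populations with at least 50 nuclei in each library. The leading population stood apart from the next, with intervals that did not overlap in either library, for 8 of the 10 genes. The exceptions were Agtr1a, whose level in Mural cells overlapped that in Cardiomyocytes in the control library, and Adrb1, whose level in Cardiomyocytes overlapped that in MPs there.

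**Figure D1:**
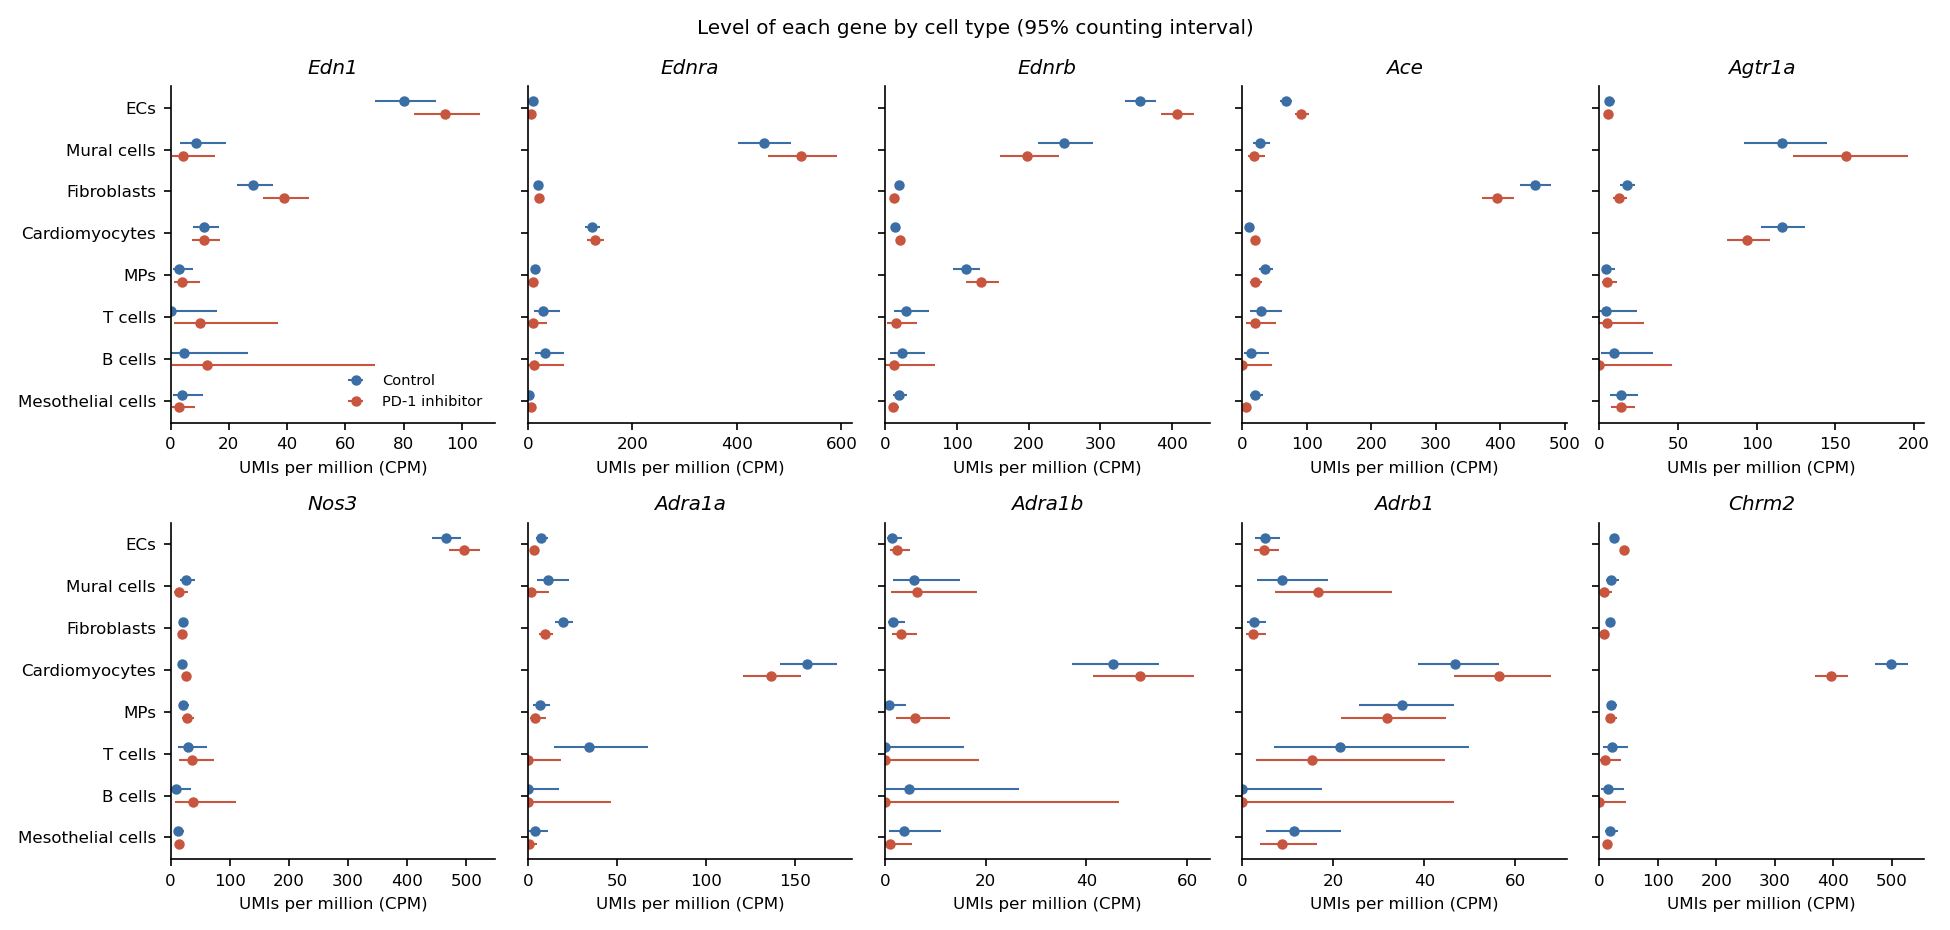
Level of each of the 10 genes, in CPM, in the 8 populations with at least 50 nuclei in each library. Points are the control library (blue) and the PD-1 inhibitor library (red), bars are 95% counting intervals, and each gene has its own axis from 0. Chrm2 in Cardiomyocytes stood at 499 and 397 CPM, against 25.8 and 41.8 CPM in ECs.

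Edn1, the ligand gene (chromosome 13, chr13:42301476-42307990, plus strand), was measured at 80.1 CPM (70.3 to 91.0) in control ECs and 94.3 CPM (83.4 to 106) in the PD-1 inhibitor library, from 239 and 273 UMIs. This gave a log2 ratio of 0.23 (-0.02 to 0.49), an interval that includes 0. Its spread over ECs was uneven. The arterial-like cluster, led by Sema3g, Klk10 and Gja5, stood highest with 351 CPM (260 to 464) and 348 CPM (259 to 459). The endocardial-like cluster, led by Nrg1, Plagl1 and Npr3, was at 103 and 121 CPM, and the capillary-like cluster, led by Aplnr and Timp4, at 30.6 and 13.6 CPM. The arterial-like level lay above those of the other EC clusters in both libraries and had a log2 ratio of -0.01 (-0.61 to 0.59). In the capillary-like cluster the counts were 29 and 9 UMIs, fewer than the 50 in both libraries together that were asked for a ratio.

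Fibroblasts held Edn1 as well, at 28.5 CPM (22.7 to 35.2) in the control and 39.0 CPM (31.7 to 47.6) in the PD-1 inhibitor library, giving a log2 ratio of 0.46 (0.02 to 0.89). Both large fibroblast clusters held it. Set against the 10 EC markers as a measure of EC RNA in these nuclei, there were 42.5 and 64.3 Edn1 UMIs per 1000 marker UMIs in Fibroblasts, against 9.39 and 11.6 in all ECs and 32.6 and 32.7 in arterial-like ECs. The Myh7b cluster of cardiomyocytes, with 24 and 14 Edn1 UMIs, had 70.2 and 46.1 by the same measure, so a high value was not particular to Fibroblasts. An Edn1 UMI was found in 4.19% and 5.73% of EC nuclei and in 0.318% and 0.452% of MPs, at median depths of 898 and 951 UMIs in ECs and 903 and 966.5 UMIs in MPs. MPs are a low background for this gene, at 2.98 and 3.97 CPM. Cardiomyocytes, the background planned for Edn1 and used for the other EC genes, held more of it, at 11.6 and 11.4 CPM, from 28 and 23 UMIs. The contrast with MPs is thus wider than that with the planned background. With every nucleus thinned to 500 UMIs the shares were 2.99% and 3.58% in ECs and 0.0794% and 0.226% in MPs.

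Ednra, the receptor that contracts mural cells (chromosome 8, chr8:77663031-77724464, minus strand), was at 451 CPM (403 to 504) in control Mural cells and 522 CPM (460 to 591) in the PD-1 inhibitor library. Its log2 ratio was 0.21 (-0.04 to 0.46). Pericyte-like nuclei, led by Kcnj8 and Vtn, carried it at 529 and 611 CPM, and smooth muscle-like nuclei, led by Myh11, Cnn1 and Tagln, at 159 and 107 CPM. The pericyte-like level lay above the smooth muscle-like level in both libraries, with intervals that did not overlap. An Ednra UMI was found in 30.6% and 32.8% of Mural cell nuclei, against 1.11% and 0.905% of MPs, and thinning to 500 UMIs gave 19.3% and 21.9% against 0.794% and 0.339%. The median depth was 967.5 and 974 UMIs in Mural cells and 903 and 966.5 UMIs in MPs.

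Cardiomyocytes were second for Ednra, at 123 CPM (109 to 137) and 128 CPM (113 to 145), giving a log2 ratio of 0.07 (-0.18 to 0.31). Of the 296 and 259 UMIs there, 268 and 228 lay in 1 cluster. This Myh7b cluster, led by Hs3st5, Fgf13 and Myh7b, in which the median nucleus had 0.360% and 0.689% mitochondrial UMIs, had 166 CPM (147 to 187) in the control and 212 CPM (186 to 242) in the PD-1 inhibitor library. The mt-Nd5 cluster, led by Acta1, Ckm and Mb with a median of 9.54% and 8.49%, had 24.3 and 27.8 CPM. Within the Myh7b cluster the log2 ratio was 0.35 (0.09 to 0.61), while this cluster gave 66.8% of the cardiomyocyte UMIs in the control and 53.2% in the PD-1 inhibitor library.

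Ednrb, the receptor that clears endothelin (chromosome 14, chr14:103814625-103844402, minus strand), was at 355 CPM (334 to 377) in control ECs and 407 CPM (384 to 431) in the PD-1 inhibitor library. The log2 ratio was 0.20 (0.08 to 0.32). The mix of EC clusters moved with it. The endocardial-like cluster had 600 and 597 CPM and gave 50.6% and 60.0% of the EC UMIs. With the same mix of clusters in both libraries the log2 ratio was 0.02, and thinned to 500 UMIs it was 0.02 as well. Around the endocardial-like cluster the levels were lower, at 136 and 219 CPM in the lymphatic-like cluster led by Mmrn1 and Reln, and at 108 and 83.2 CPM in the capillary-like cluster. In the arterial-like cluster, where the ligand was highest, 4 and 3 Ednrb UMIs were counted. Ligand and receptor were thus highest in different EC clusters.

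Ednrb was also measured outside ECs. Mural cells had 250 CPM (214 to 290) and 199 CPM (161 to 243), giving a log2 ratio of -0.33 (-0.71 to 0.04), and 167 of the 172 and 94 of the 95 UMIs were in the pericyte-like cluster, at 307 and 238 CPM. Pericyte-like nuclei thus carried both endothelin receptors. Macrophage-like nuclei had Ednrb at 128 CPM (108 to 150) and 145 CPM (121 to 172). An Ednrb UMI was found in 18.8% and 21.9% of EC nuclei and in 2.59% and 3.04% of Cardiomyocytes, and thinning gave 11.8% and 13.7% against 0.942% and 0.922%. The median depth of Cardiomyocytes was 1404 and 1425 UMIs. In the valve EC-like cluster, led by Wnt9b and Hapln1 with 81 and 72 nuclei, the counts were 11 and 38 UMIs, too few for a ratio.

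**Figure D2:**
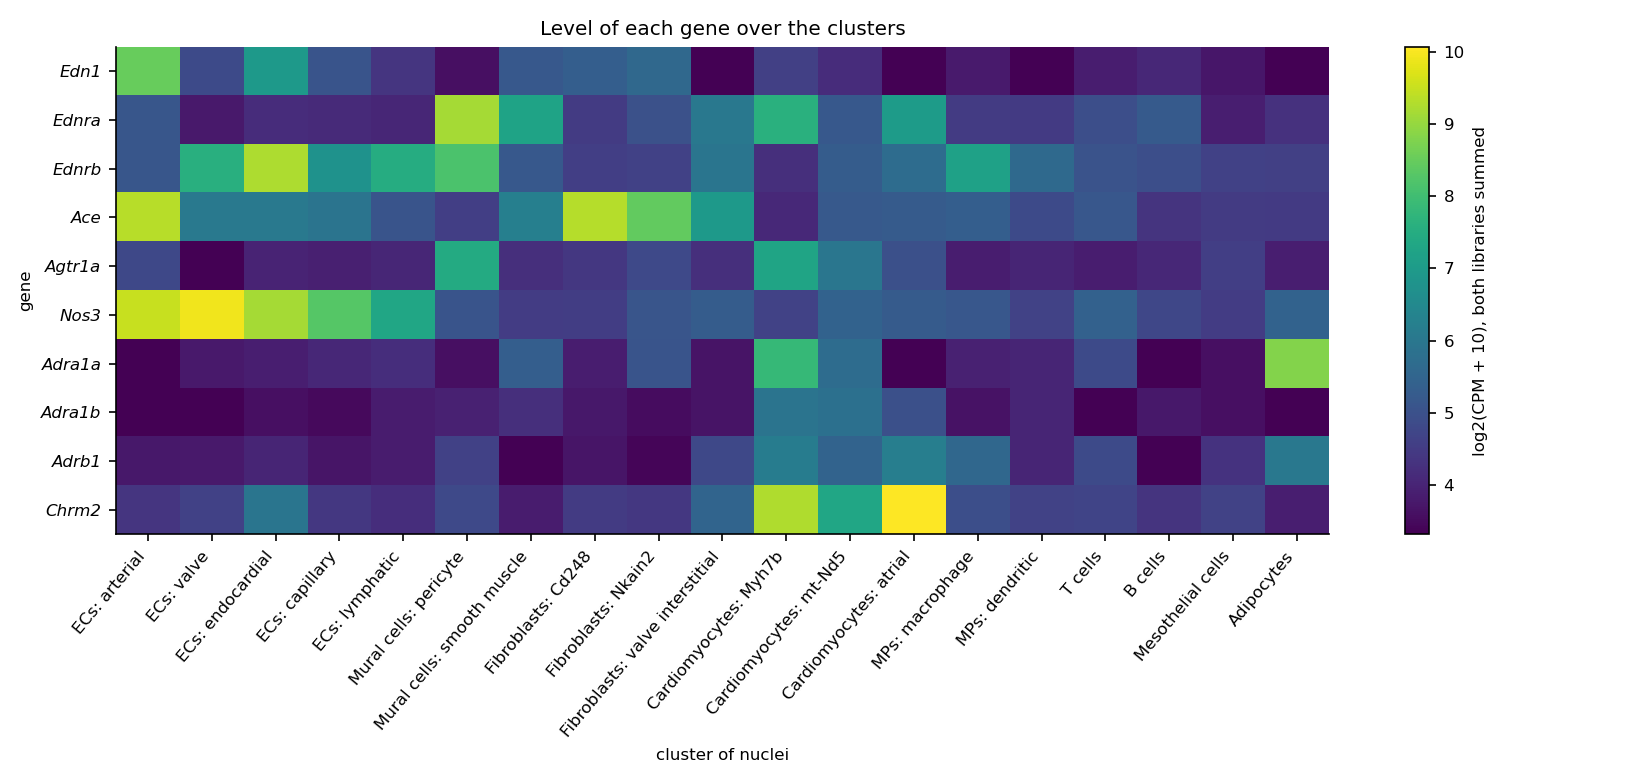
Level of the 10 genes (rows) over 19 clusters of at least 50 nuclei in both libraries together (columns), as log2(CPM + 10) with both libraries summed, so a cell at the dark end holds no or almost no UMIs. Edn1 is brightest in arterial-like ECs, Ednrb in endocardial-like ECs, and Ednra in pericyte-like nuclei, where Ednrb and Agtr1a are also seen.

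Of the 4 other endothelin pathway genes that were listed, only Ece1 had enough UMIs for a ratio in ECs. Ece1 had 807 CPM and 1009 CPM there, giving a log2 ratio of 0.32 (0.24 to 0.40), below the log2 ratio of 0.5 (1.41-fold) used as the fold. In Mural cells it had 161 and 130 CPM. Ece1 is named as the gene left by this filter. The other peptide genes, Edn2 and Edn3, had 0 UMIs in ECs of both libraries.

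Ace, the enzyme that makes angiotensin II (chromosome 11, chr11:105967945-105989964, plus strand), was at 454 CPM (430 to 479) in control Fibroblasts and 395 CPM (371 to 421) in the PD-1 inhibitor library. Its log2 ratio was -0.20 (-0.32 to -0.08). Both large fibroblast clusters had less of it with the antibody. The Cd248 cluster, led by Myoc, Cilp and Pi16, had 674 CPM (622 to 728) and 578 CPM (533 to 625), and the Nkain2 cluster, led by Rgs17, Fbn2 and Eya2, had 372 CPM (345 to 400) and 282 CPM (254 to 313). Their log2 ratios were -0.22 (-0.38 to -0.06) and -0.40 (-0.59 to -0.21). The fibroblast markers together, set beside this, ran the other way in these nuclei, at 36209 CPM and 45521 CPM. An Ace UMI was found in 30.02% and 28.4% of Fibroblasts, against 1.88% and 3.13% of Cardiomyocytes, with thinned shares of 16.8% and 15.1% against 0.942% and 0.922% at median depths of 1044 and 1087.5 UMIs in Fibroblasts.

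In ECs, the best known site of this enzyme, Ace was at 67.7 CPM (58.7 to 77.7) and 91.9 CPM (81.1 to 104). The log2 ratio was 0.44 (0.17 to 0.71), opposite in sign to that in Fibroblasts. Arterial-like ECs held it at 595 CPM (474 to 737) and 676 CPM (548 to 824), which overlapped the level of the leading fibroblast cluster. The endocardial-like cluster had 36.4 CPM (27.4 to 47.4) and 72.5 CPM (60.4 to 86.3), from 55 and 126 UMIs, and its log2 ratio was 0.99 (0.53 to 1.48). Fibroblast markers in the same endocardial-like nuclei summed to 3627 CPM and 4770 CPM, and all 10 had UMIs in both libraries. Ace made 10.04 and 15.2 UMIs per 1000 of these marker UMIs there, against 12.5 and 8.68 in Fibroblasts and 347 and 340 in arterial-like ECs. Over all ECs the fibroblast markers summed to 2728 and 3766 CPM, and Ace made 24.8 and 24.4 UMIs per 1000 of them. The part of fibroblast RNA in these differences was not tested. In the valve EC-like cluster the counts ran the other way, with 13 and 2 UMIs.

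Agtr1a, the main receptor of angiotensin II (chromosome 13, chr13:30336441-30382867, plus strand), was at 116 CPM (92.1 to 145) in control Mural cells and 157 CPM (123 to 196) in the PD-1 inhibitor library, giving a log2 ratio of 0.43 (-0.04 to 0.91). Of the 80 and 75 UMIs in Mural cells, 79 and 74 lay in the pericyte-like cluster, at 145 and 188 CPM. The smooth muscle-like cluster held 1 UMI in each library. Cardiomyocytes had 116 CPM (103 to 130) and 94.2 CPM (81.3 to 109), giving a log2 ratio of -0.30 (-0.57 to -0.03), and the Myh7b cluster carried most of it at 150 and 131 CPM. With the same mix of cardiomyocyte clusters in both libraries the log2 ratio was -0.13. The receptor thus lay in the same populations as Ednra, in pericyte-like nuclei and in the Myh7b cluster of cardiomyocytes. Agtr1a had a UMI in 9.63% and 12.1% of Mural cells, or 4.73% and 7.84% after thinning, against 0.477% and 0.566% of MPs, or 0.238% and 0.339% after thinning.

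Of the 12 other renin-angiotensin genes listed, 5 could be given a ratio in Fibroblasts and 4 in Mural cells, and in both populations 0 passed the fold in either direction, beside 8.34% of all fibroblast genes upward and 5.93% downward, and 10.9% and 12.2% of all Mural cell genes. Enpep, which breaks down angiotensin II, had 266 and 314 CPM in Mural cells. Its log2 ratio was 0.24 (-0.08 to 0.56), and the gene was chosen after its values were seen.

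Nos3, the endothelial nitric oxide synthase (chromosome 5, chr5:24364810-24384474, plus strand), was at 466 CPM (442 to 491) in control ECs and 497 CPM (471 to 523) in the PD-1 inhibitor library. Its log2 ratio was 0.09 (-0.02 to 0.20). All 5 EC clusters carried it. The valve EC-like cluster had 856 CPM (698 to 1038) and 1033 CPM (875 to 1210), the arterial-like 595 CPM (474 to 737) and 829 CPM (687 to 992), the endocardial-like 577 and 540 CPM, the capillary-like 303 and 307 CPM, and the lymphatic-like 174 and 117 CPM. The order of the clusters was the same in both libraries, although the valve EC-like and arterial-like levels overlapped in both, and the arterial-like and endocardial-like levels in the control. Arterial-like ECs had a log2 ratio of 0.48 (0.06 to 0.90), and in the other 4 clusters the interval included 0. A Nos3 UMI was found in 28.7% and 31.5% of EC nuclei and in 2.98% and 4.24% of Cardiomyocytes, and thinned shares were 17.3% and 18.2% against 0.785% and 1.11%.

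Of 13 other nitric oxide genes listed, 12 could be given a ratio in ECs, and 0 passed the fold, beside 8.58% of the 10703 EC genes that passed it upward and 6.64% that passed it downward. Nearest to it were Ddah1 and Ddah2, which degrade an inhibitor of the synthase, with log2 ratios of 0.48 (0.22 to 0.75) and 0.43 (0.18 to 0.69), and Cav1, which binds and restrains the synthase, with -0.42 (-0.51 to -0.33). Cav1 was at 774 CPM and 578 CPM. These 3 genes were chosen after their values were seen.

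The 4 autonomic receptor genes led in Cardiomyocytes. Adra1a (chromosome 14, chr14:66635251-66771168, plus strand) was at 157 CPM (141 to 173) in the control and 136 CPM (121 to 153) in the PD-1 inhibitor library, giving a log2 ratio of -0.20 (-0.43 to 0.03). The Myh7b cluster had 213 and 226 CPM, the mt-Nd5 cluster 47.2 and 37.1 CPM, and atrial-like nuclei, led by Sln, Myl4 and Nppa, had 0 UMIs in both libraries. With the same mix of clusters the log2 ratio was 0.04. The sign was kept in 11 of 14 alternatives, and the interval of the main ratio included 0. Adipocytes, led by Ucp1, Adrb3 and Plin1, had more Adra1a than Cardiomyocytes, with 129 UMIs (357 CPM) from 154 nuclei of the control library and 54 UMIs (963 CPM) from 16 nuclei of the PD-1 inhibitor library. The log2 ratio of 1.44 (0.94 to 1.90) there rests on those 16 nuclei. In Fibroblasts the counts were 59 and 24 UMIs, 19.7 and 9.66 CPM, with a log2 ratio of -1.01 (-1.78 to -0.32), and 55 and 18 of these UMIs lay in the Nkain2 cluster. The 10 adipocyte markers summed to 69.6 CPM (208 UMIs, all 10 with a UMI) in Fibroblasts of the control and 32.2 CPM (80 UMIs, 9 with a UMI) with the antibody, so they moved with Adra1a there, and their part was not tested.

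Adra1b (chromosome 11, chr11:43774606-43901210, minus strand) was at 45.2 CPM (37.1 to 54.5) and 50.6 CPM (41.2 to 61.4) in Cardiomyocytes, from 109 and 102 UMIs, giving a log2 ratio of 0.16 (-0.24 to 0.57). Both large cardiomyocyte clusters carried it, with 49.0 and 51.2 CPM in the Myh7b cluster and 39.1 and 52.2 CPM in the mt-Nd5 cluster. Adrb1, the main beta receptor of the heart (chromosome 19, chr19:56722199-56733113, plus strand), was at 46.8 CPM (38.6 to 56.3) and 56.5 CPM (46.6 to 67.9) in Cardiomyocytes. The log2 ratio was 0.27 (-0.12 to 0.66), and it was 0.66 after thinning to 500 UMIs, a single random draw with no interval. Among the 8 populations with at least 50 nuclei in each library, MPs were second for Adrb1, with 35.0 CPM (25.7 to 46.6) and 31.8 CPM (21.7 to 44.8), and 46 of the 47 and 31 of the 32 UMIs were in macrophage-like nuclei. Adipocytes had 18 and 5 Adrb1 UMIs, or 49.9 and 89.2 CPM. For both receptors the interval of the ratio included 0 wherever a ratio was given.

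Chrm2, the M2 muscarinic receptor (chromosome 6, chr6:36388084-36528414, plus strand), was at 499 CPM (472 to 528) in control Cardiomyocytes and 397 CPM (370 to 425) in the PD-1 inhibitor library, from 1205 and 800 UMIs. The log2 ratio was -0.33 (-0.46 to -0.20), with intervals of the levels that did not overlap. The clusters behind the sum differed widely. Atrial-like nuclei had the highest level, 1525 CPM (1229 to 1870) in the control and 723 CPM (550 to 932) in the PD-1 inhibitor library, from 92 and 59 UMIs of 41 and 43 nuclei. The Myh7b cluster had 623 CPM (585 to 663) and 570 CPM (526 to 617), giving a log2 ratio of -0.13 (-0.28 to 0.02), and the mt-Nd5 cluster 147 and 150 CPM, giving a log2 ratio of 0.02 (-0.35 to 0.41). With the same mix of clusters in both libraries the log2 ratio over Cardiomyocytes was -0.18, thinned to 500 UMIs it was -0.15, and as a mean over nuclei it was -0.12.

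In atrial-like nuclei the log2 ratio of Chrm2 was -1.07 (-1.57 to -0.59), and the EC and fibroblast markers there ran the other way. Cardiomyocyte markers summed to 61196 and 50948 CPM there, EC markers to 481 and 1445 CPM, and fibroblast markers to 3364 and 5119 CPM. Per 1000 UMIs of cardiomyocyte markers, Chrm2 stood at 24.9 (20.1 to 30.6) in the control and 14.2 (10.8 to 18.3) in the PD-1 inhibitor library. A Chrm2 UMI was found in 35.8% and 31.0% of all Cardiomyocytes, against 1.83% and 1.81% of MPs, and thinned shares were 16.7% and 13.3% against 0.556% and 1.24%.

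Outside Cardiomyocytes, Chrm2 was higher in ECs and lower in Fibroblasts of the PD-1 inhibitor library. In ECs it had 25.8 CPM (20.4 to 32.3) and 41.8 CPM (34.7 to 49.9), giving a log2 ratio of 0.69 (0.27 to 1.13), and after thinning to 500 UMIs the ratio was 0.19, below the fold. In Fibroblasts it had 18.1 CPM (13.6 to 23.6) and 7.24 CPM (4.29 to 11.4), from 54 and 18 UMIs, giving a log2 ratio of -1.29 (-2.18 to -0.53). The EC difference lay in the endocardial-like cluster, with 55 UMIs (36.4 CPM) and 114 UMIs (65.6 CPM). Cardiomyocyte markers, of which all 10 had UMIs in these nuclei, summed to 3664 and 3732 CPM in ECs and to 3072 and 2916 CPM in Fibroblasts. Per 1000 UMIs of these markers, Chrm2 stood at 7.77 and 5.98 in Cardiomyocytes and at 6.04 and 5.42 in MPs. It stood at 11.2 (8.43 to 14.6) and 20 (16.5 to 24.0) in endocardial-like ECs, at 3.03 and 1.46 in capillary-like ECs, and at 5.88 (4.42 to 7.68) and 2.48 (1.47 to 3.93) in Fibroblasts. In MPs and Fibroblasts these values lay below those of Cardiomyocytes. Those of MPs rest on 28 and 19 Chrm2 UMIs and carry no interval here, so their order against Cardiomyocytes is not settled. In control Fibroblasts the upper bound of 7.68 lay close to the 7.77 of Cardiomyocytes.

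**Figure D3:**
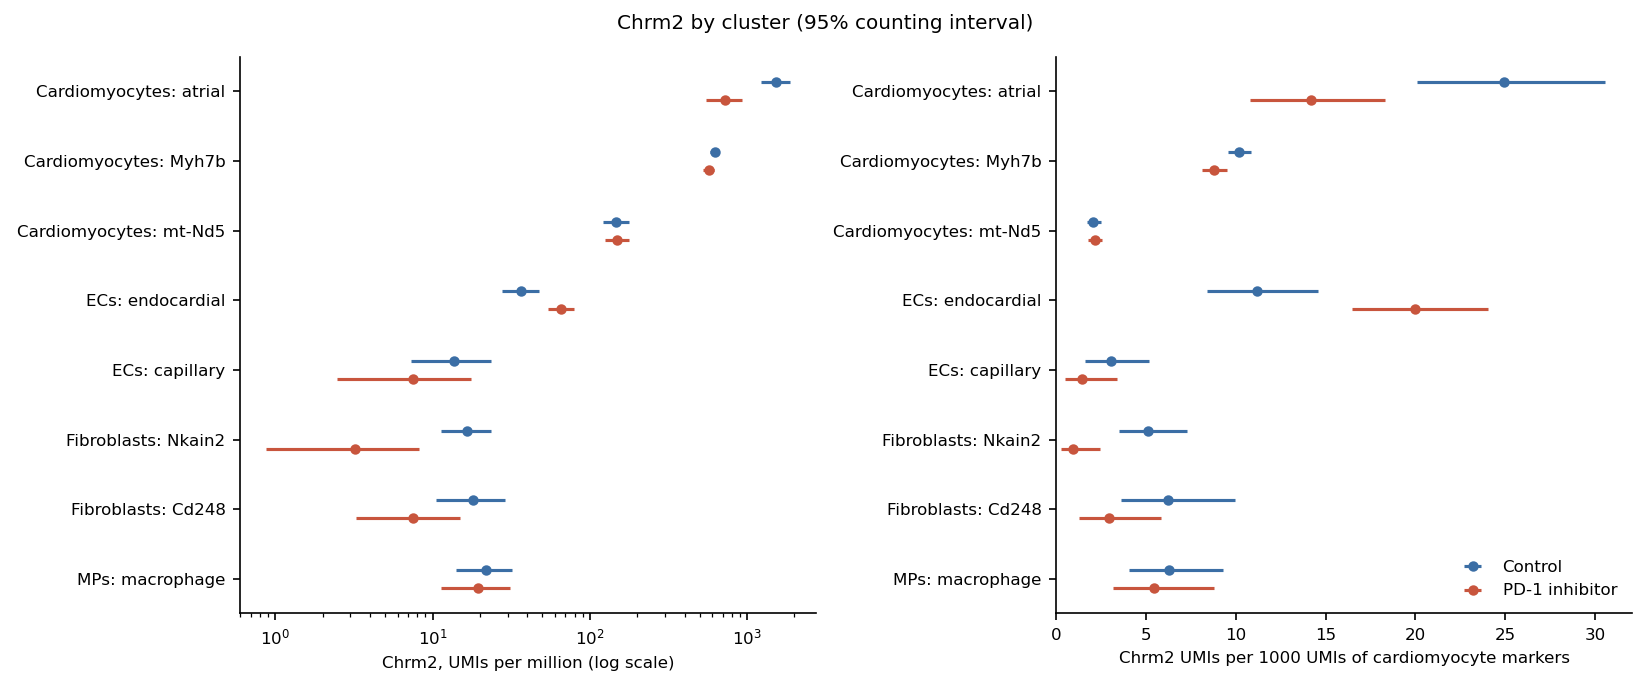
Chrm2 in 8 clusters of the control library (blue) and the PD-1 inhibitor library (red), as CPM on a log axis (left) and per 1000 UMIs of the 10 cardiomyocyte markers (right), with 95% counting intervals. On the right, endocardial-like ECs stand at 11.2 and 20, capillary-like ECs at 3.03 and 1.46, and atrial-like nuclei at 24.9 and 14.2.

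Around these receptors, the other listed genes of both pathways were read in Cardiomyocytes. Of 11 adrenergic genes with a ratio, 0 passed the fold upward and 2 passed it downward, and of 7 muscarinic genes 1 passed it upward and 3 downward, beside 12.1% of all 9178 cardiomyocyte genes upward and 11.7% downward. Grk5, a kinase that desensitises adrenergic receptors, had 151 CPM and 89.2 CPM, giving a log2 ratio of -0.76 (-1.02 to -0.50). Pde3a, a phosphodiesterase that degrades cyclic AMP, had 390 CPM and 245 CPM, giving a log2 ratio of -0.67 (-0.83 to -0.51). Both genes had their lower level with the antibody.

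Of the muscarinic genes, Kcnj3, a subunit of the potassium channel that Chrm2 opens, had 299 CPM and 191 CPM, giving a log2 ratio of -0.65 (-0.83 to -0.47). Rgs6, which ends the signal of the receptor's G protein, had 246 CPM and 155 CPM, giving a log2 ratio of -0.66 (-0.87 to -0.46), and Bche, which breaks down choline esters, had 34.8 CPM and 22.8 CPM, giving a log2 ratio of -0.60 (-1.16 to -0.08). Gnai2, a subunit of that G protein, was higher, with 118 CPM and 182 CPM, giving a log2 ratio of 0.63 (0.40 to 0.86). The partner subunit Kcnj5 had 36.5 and 37.2 CPM, giving a log2 ratio of 0.03 (-0.44 to 0.49). Kcnj5 was chosen after its values were seen. The share of the Myh7b cluster in the cardiomyocyte UMIs, 66.8% and 53.2%, moved with these ratios, and its part in them was not tested. A list of 12 genes of Gq signalling, which follows Ednra, Agtr1a, Adra1a and Adra1b, held 10 with a ratio in Cardiomyocytes, of which 1 passed the fold downward (Prkcd). In Mural cells 1 of 8 passed it downward (Gnaq), beside 10.9% of all Mural cell genes upward and 12.2% downward, and 0 passed upward in either population.

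**Figure D4:**
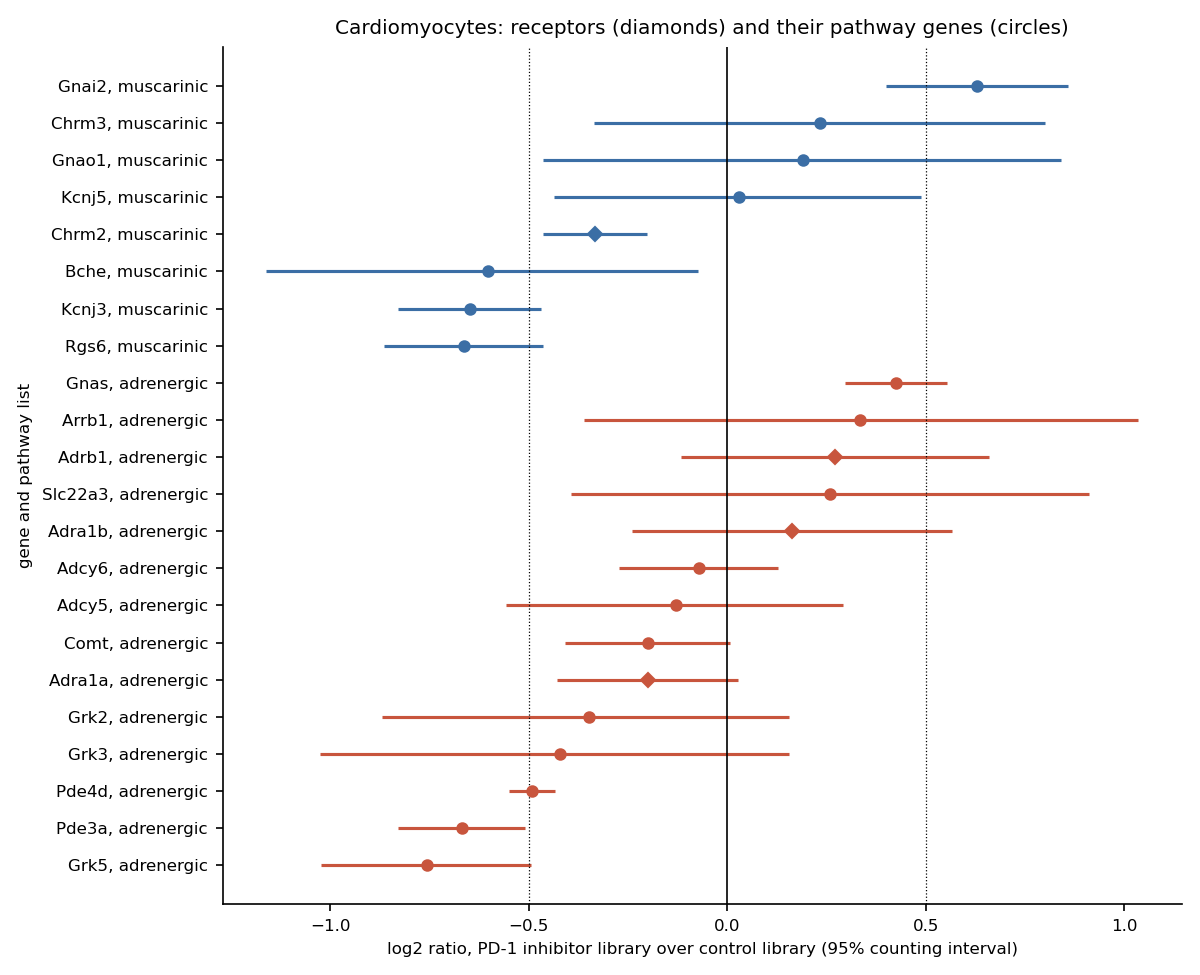
Log2 ratio of PD-1 inhibitor over control in Cardiomyocytes for the receptor genes (diamonds) and the listed adrenergic (red) and muscarinic (blue) genes with a ratio (circles), with 95% counting intervals and dotted lines at -0.5 and 0.5. Grk5, Pde3a, Rgs6, Kcnj3 and Bche lie past -0.5, and Gnai2 past 0.5.

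Gene length moved with these ratios. With genes put into 5 equal groups by genomic span, the shortest group had a median log2 ratio of 0.26 and the longest -0.27 in Cardiomyocytes, and in ECs the medians were 0.22 and -0.17. Chrm2, Adra1a and Adra1b are in the longest group in Cardiomyocytes, with spans of 140, 136 and 127 kb, and Edn1 is in the shortest with 6.515 kb. The groups held 9174 of the 9178 cardiomyocyte genes with a ratio. Which group each listed pathway gene fell in, Grk5, Pde3a, Kcnj3 and Rgs6 among them, was not read out. The part of gene length in any of these differences was not tested.

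Counted over the genes examined, 5 had a ratio in ECs, and 1 passed the fold upward (Chrm2) and 0 downward, beside the 8.58% and 6.64% of all EC genes. In Fibroblasts 8 had a ratio, and 0 passed upward and 3 downward (Ednrb, Adra1a and Chrm2), beside 8.34% of all 10585 fibroblast genes upward and 5.93% downward. In Cardiomyocytes all 10 had a ratio, and 3 passed upward (Ednrb, Ace and Nos3) and 0 downward, beside the 12.1% and 11.7% of all cardiomyocyte genes. In MPs 4 had a ratio, and 0 passed upward and 1 downward (Ace), beside 9.97% and 9.91% of 7985 genes. In Mural cells 3 had a ratio and 0 passed in either direction, beside 10.9% and 12.2% of 5206 genes. In each of these cases the gene was outside its leading population, and the intervals of Ednrb in Fibroblasts and of Ednrb and Nos3 in Cardiomyocytes included 0. The 3 genes that passed in Cardiomyocytes were at 11.2 to 26.8 CPM there, and the summed EC markers in Cardiomyocytes were 472 and 662 CPM and the summed fibroblast markers 1436 and 2190 CPM, so both foreign lists moved with them, and their part was not tested. In the leading populations the log2 ratio was between -0.33 (Chrm2) and 0.43 (Agtr1a), and its interval excluded 0 for Ednrb, Ace and Chrm2. With the same mix of clusters it was 0.02 for Ednrb and -0.18 for Chrm2. Thinned to 500 UMIs it was 0.66 for Adrb1, past the fold, but from a single random draw with no interval.

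**Figure D5:**
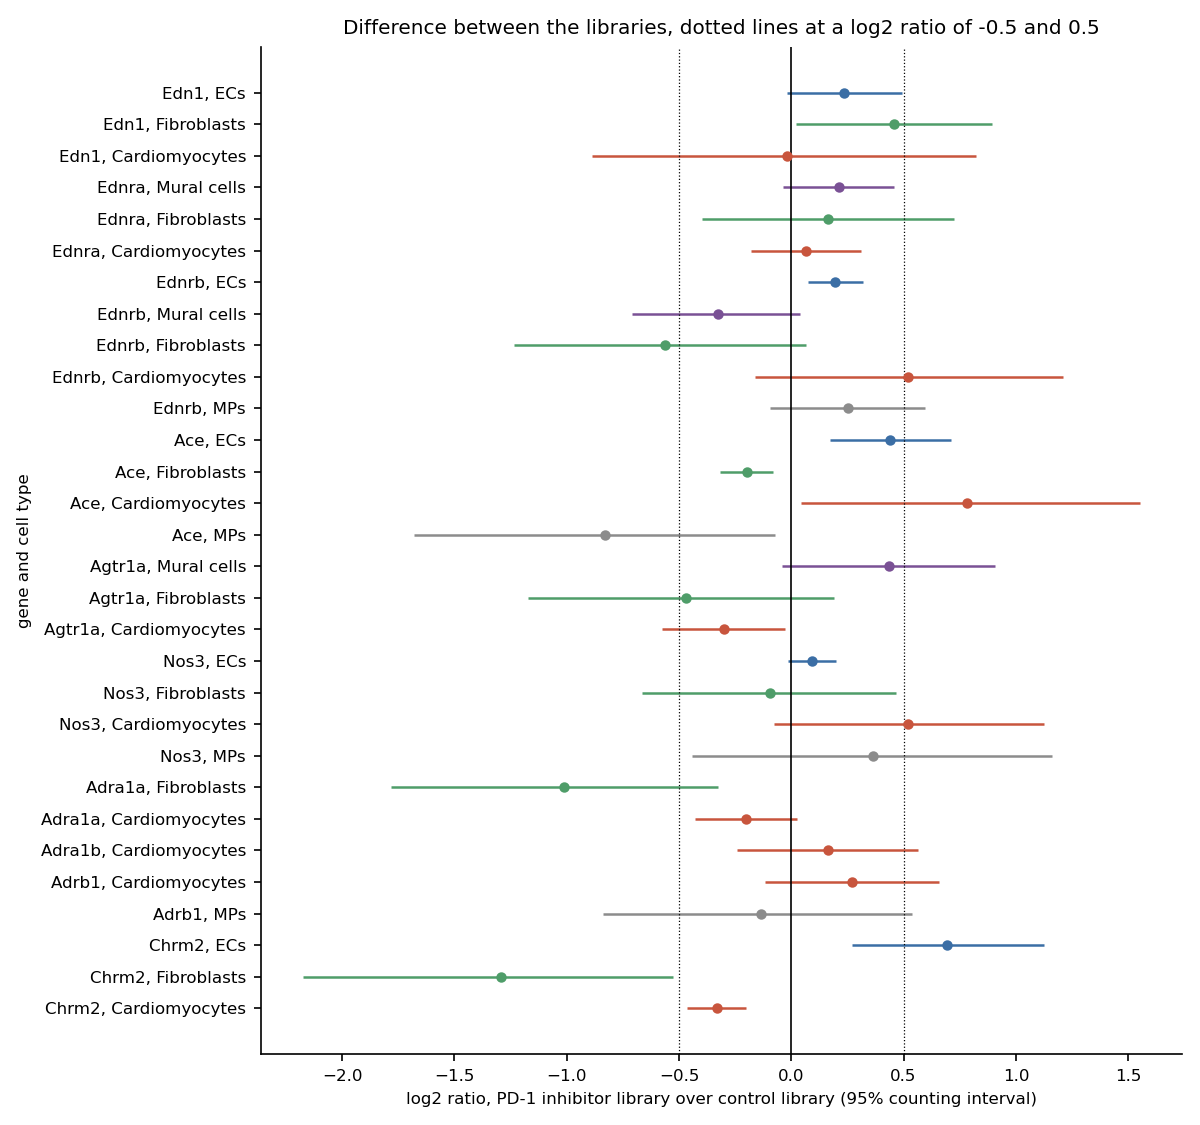
Log2 ratio of PD-1 inhibitor over control for each gene in ECs, Fibroblasts, Cardiomyocytes, MPs and Mural cells, where it had at least 50 UMIs in both libraries together, with 95% counting intervals and dotted lines at -0.5 and 0.5. Colours mark the 5 populations. Among them, points past the dotted lines whose interval leaves out 0 are those of Ace in Cardiomyocytes (0.78) and MPs (-0.83), Adra1a (-1.01) and Chrm2 (-1.29) in Fibroblasts and Chrm2 in ECs (0.69).

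The genes whose levels were most alike over the 19 clusters of at least 50 nuclei in both libraries together were found by Pearson's r of log2(CPM + 10), among 8470 genes. Nos3 was closest to Gata2, a transcription factor of blood vessels (r = 0.97), then Slc9a3r2 and Mmrn2 (both r = 0.95). Chrm2 was closest to Dsc2 and Abcc8 (both r = 0.96) and to the channel gene Kcnj3 (r = 0.95). Adra1b lay with Pfkm (r = 0.96), Pln and Atp2a2 (r = 0.94), the last the pump that fills the calcium store of cardiomyocytes. Ednra and Agtr1a both had Abcc9 among their 3 closest genes (r = 0.83 and 0.84). Abcc9, a potassium channel subunit, is among the Mural cell markers from which clusters were named. Ednra was closest to Cacna1c (r = 0.86) and also near Carmn (r = 0.83), and Agtr1a was also near Casq2 (r = 0.82) and Alpk2 (r = 0.77). Ace was closest to Col8a1 (r = 0.90), Mfap5 (r = 0.88) and Pi16 (r = 0.87). For Edn1 these genes were Enpp6 (r = 0.83), Sox13 and Adamts1 (both r = 0.80), and for Ednrb they were Smagp (r = 0.85), Stard8 (r = 0.81) and Gpr182 (r = 0.79). Adra1a was nearest to Slc25a42 (r = 0.89), Clpx (r = 0.88) and Ppp1r3b (r = 0.87), and Adrb1 to Slc25a26 (r = 0.85), Pkd2l2 (r = 0.84) and Lpin1 (r = 0.83). The clusters share their libraries and their depth, so these r values are a description. Among the 10 genes themselves the closest pairs were Adra1b with Chrm2 (r = 0.80) and Ednra with Agtr1a (r = 0.77).

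Several of the genes overlap others on the GENCODE vM21 annotation of GRCm38, and the counting strand is not given in the sources used here. Edn1 overlaps Gm47118, Ednra 4933431K23Rik, Ace Gm11651, Agtr1a Gm48161, Nos3 Gm15587 and Atg9b, and Chrm2 9330158H04Rik and Mir490. Ednrb, Adra1a, Adra1b and Adrb1 overlap no annotated gene. Gm48161 and Mir490 lie on the same strand as their partner and the others on the opposite one, and without strand the reads of a gene and of its partner cannot be told apart.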

How the data were processed

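Nuclei were isolated and libraries made with the GEXSCOPE single nucleus kit, 1 library per group. The authors deposited whole-number UMI counts per gene and barcode, with no normalization. The submitters' processing notes name the builds GRCm38 and mm10, and the aligner, annotation and counting strand are not given in the sources used here. Coordinates come from GENCODE vM21 on GRCm38, which held 32445 of the 32589 identifiers.

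A minimum of 200 genes and a maximum of 20% mitochondrial UMIs per nucleus were required, and doublets called per library by Scrublet (592 and 308) were removed. UMIs were scaled to 10000 per nucleus, logged and scaled to unit variance, and clustered on 2000 variable genes, 30 principal components and 15 neighbours by Leiden at resolution 1 (scanpy 1.11.5, Python 3.11.15). A cluster was named when at least 3 markers of a type had a UMI in 5% of its nuclei at over 2 times the CPM of other nuclei. Unit variance scaling was chosen after the data were seen.

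UMIs were summed per population and library. Log2 ratios added 0.5 UMI to each sum and were given for at least 50 UMIs in both libraries together, with a fold of 0.5 on the log2 scale. Intervals at 95% are exact (Poisson, Clopper-Pearson, or binomial given both counts) and cover counting error only. No test was made with 1 library per condition. Shares were repeated with nuclei thinned to 500 UMIs. Thinning was a single random draw, and thinned ratios have no interval. The ratio and interval steps were tested on simulated data. Every gene examined was named, with the 3 genes most alike over clusters (at least 500 UMIs) and the pathway genes past the fold in a leading population of their pathway. The genes, the 71 pathway genes, the markers and the motifs were chosen with earlier results of these data known. Alternatives were other filters, resolutions, totals, centrings, pseudocounts, thinning, and the same mix of clusters or of 5 depth bins. Some listed genes are not reported here.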

Additional observations from a re-analysis of the deposited data

Results flagged for a closer look

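Ace differed in direction between 2 populations. It was higher in ECs of the PD-1 inhibitor library (log2 ratio 0.44) and lower in Fibroblasts (-0.20), with intervals for counting error that excluded 0 in both, and the ratios lay 0.64 apart. The summed fibroblast markers in ECs moved with it, at 2728 and 3766 CPM, and Ace made 24.8 and 24.4 UMIs per 1000 of them. Chrm2 was higher in ECs (0.69) and lower in Cardiomyocytes (-0.33), and the ratios lay 1.02 apart. Thinned to 500 UMIs per nucleus, they were 0.19 and -0.15. With 1 library per condition, neither difference was tested.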

How the results depend on the processing

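No paired analysis was possible because each condition has 1 library, and for the same reason no library could be left out. Of 433 alternative ratios for 31 results, 421 stayed within the counting interval, and 0 called ratios changed sign. Of 200 alternative levels 180 stayed. With at least 500 genes per nucleus, Ednra in Mural cells was at 546 and 634 CPM (control and PD-1 inhibitor) and Agtr1a at 149 CPM in the control, and at Leiden resolution 0.5 these were 529, 611 and 145 CPM, where the smooth muscle-like cluster was left unnamed. With at most 5% mitochondrial UMIs, Adra1a in Cardiomyocytes was at 208 and 215 CPM with a log2 ratio of 0.046, Adrb1 at 70.5 CPM in the PD-1 inhibitor library, and Chrm2 at 644 and 559.9 CPM with a ratio of -0.20. Thinned to 500 UMIs, the ratios were 0.018 for Ednrb in ECs, 0.66 for Adrb1 and -0.15 for Chrm2 in Cardiomyocytes. The thinned control levels were 382 CPM for Ednrb and 441 CPM for Nos3 in ECs, 132 CPM for Adra1a, 36.1 CPM for Adra1b and 425 CPM for Chrm2 in Cardiomyocytes and 507 CPM for Ednra in Mural cells, and Adrb1 was at 77.4 CPM with the antibody. As a mean over nuclei, Nos3 in ECs was at 465 CPM in the PD-1 inhibitor library, and Chrm2 in Cardiomyocytes at 414.5 CPM in the control with a ratio of -0.12. With the same mix of clusters the ratios were 0.020 for Ednrb in ECs, and 0.044 for Adra1a and -0.18 for Chrm2 in Cardiomyocytes. The cause of these differences was not tested.

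At a log2 ratio of 1, the pathway genes past the fold were 0 in ECs, 0 in Fibroblasts, 0 in Cardiomyocytes, 1 in MPs and 2 in Mural cells, against 5, 3, 11, 5 and 10 at 0.5, of 41, 41, 40, 34 and 35 with a ratio. Of all genes, 12.1% passed 0.5 upward and 11.7% downward in Cardiomyocytes, and 10.9% and 12.2% in Mural cells. With at least 20 UMIs the pathway genes past 0.5 were 6 in Fibroblasts and 11 in MPs. The share of all genes was not counted at a log2 ratio of 1 or at 20 UMIs, so these counts have no background. Chrm2 in Fibroblasts stayed past the fold throughout (-1.54 to -1.09). Chrm2 in ECs fell below it when thinned (0.19) or as a mean over nuclei (0.43). In Cardiomyocytes the ratios spanned 0.40 to 2.11 for Ace, 0.28 to 0.97 for Ednrb and 0.09 to 1.05 for Nos3, so each fell below the fold under some alternative. Ace in MPs spanned -0.96 to -0.43 and Ednrb in Fibroblasts -0.72 to -0.24. All 20 shares of nuclei were lower after thinning, a step that removes UMIs and so cannot raise a share. Depth limits genes under about 50 UMIs per population, and all intervals leave out the spread between hearts.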

Other observations

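Other receptors of the same pathways had their own cell types. These genes were chosen after their values were seen. Adrb3, the beta receptor of fat, had 346 and 59 UMIs in Adipocytes (958 and 1053 CPM), and at most 9 UMIs in ECs, Fibroblasts, Cardiomyocytes, MPs or Mural cells of either library. Chrm3, the muscarinic receptor through which acetylcholine relaxes vessels, was at 618 and 570.5 CPM in ECs, giving a log2 ratio of -0.11 (-0.21 to -0.02), and in Mural cells it had 56 and 13 UMIs, for which the log2 ratio was -1.54 (-2.58 to -0.69).

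Ren1, the gene of renin, which begins the angiotensin cascade, was also picked after its values were seen. It had 102 UMIs in control Mesothelial cells and 14 with the antibody, 129 and 13.5 CPM, giving a log2 ratio of -3.21 (-4.18 to -2.45). How many of the 480 and 462 Mesothelial nuclei held these UMIs was not counted. The share of all genes past the fold was not taken in this population, so the ratio has no background. Of the other populations with at least 50 nuclei in each library, and Adipocytes, 0 held more than 4 Ren1 UMIs in a library.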
